A study of Homo sapiens with 8 samples.

Results

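Collagens are the structural proteins of the extracellular matrix, and this account follows their genes in a breast cancer line grown with and without astrocytes. The members were all rows of the deposited count table whose symbol has the form COL, a number, A and a number, 44 of 57445 rows. Of these, 32 averaged 10 counts or more across the 8 libraries and were tested. They comprised 10 of 11 fibrillar collagens, 5 of 6 basement membrane collagens of type IV and 17 of 27 other collagens. The 12 that were not tested had 0 to 10 counts in any library and were COL2A1, COL4A3, COL6A5, COL6A6, COL9A1, COL19A1, COL20A1, COL21A1, COL23A1, COL25A1, COL26A1 and COL28A1. COL23A1 had no count in any library.

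The RNA came from MDA231-BrM2, a brain-metastatic subline of the human breast carcinoma MDA-MB-231, by translating ribosome affinity purification (TRAP). In TRAP, ribosomes carrying a GFP tag in 1 cell type are captured with anti-GFP beads, so that the RNA being translated there can be read from a mixed lysate. Carcinoma cells that carried a control hairpin were kept either by themselves or in coculture with astrocytes. Cells that carried 1 of 2 hairpins against connexin 43 (Cx43, a gap junction channel protein whose gene is GJA1) were kept in coculture. Each of these 4 groups had 2 libraries, described as independent replicates, and cocultures held 1 astrocyte per carcinoma cell for 24 h. All groups carried a hairpin and the TRAP tag, the species of the astrocytes is not given in the sources used here, and no Cx43-depleted cells without astrocytes were among the samples.

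Collagen chains assemble in groups into a stiff helix, which is possible only where glycine, the smallest amino acid, occupies 1 residue in 3. Fibrillar collagens such as types I, III and V have a long unbroken helix and pack into fibrils, type IV collagen has an interrupted helix and forms the sheet-like network under epithelia and around vessels, and the other types link, coat or anchor those structures. In normal brain collagen is found mainly in the meninges and the basement membranes of vessels. Chains are modified and folded in the endoplasmic reticulum, exported in large carriers, trimmed and crosslinked outside the cell, and sensed by integrins and discoidin domain receptors.

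The glycine repeat is written in the coding sequence, because every glycine codon begins with GG. The stretches below are 90 bases each, 5′ to 3′, from the longest protein-coding GENCODE v29 transcript of each gene. Capitals mark the GG of the glycine codon that opens each triplet of codons within 1 run. That run is the longest unbroken one of the gene in which 1 codon in 3 is glycine. A further glycine codon inside a triplet, as in COL8A1, is left in lower case. The stretches are shown because the length of this run sets the fibrillar class apart from the others.
COL1A1, from codon 179 to 208: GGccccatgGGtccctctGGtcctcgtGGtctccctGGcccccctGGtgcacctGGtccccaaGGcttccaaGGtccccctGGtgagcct
COL1A2, from codon 91 to 120: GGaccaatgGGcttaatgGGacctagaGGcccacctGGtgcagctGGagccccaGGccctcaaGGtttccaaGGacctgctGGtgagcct
COL8A1, from codon 351 to 380: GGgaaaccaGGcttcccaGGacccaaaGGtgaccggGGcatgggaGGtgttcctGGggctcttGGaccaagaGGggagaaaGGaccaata
COL4A1, from codon 148 to 177: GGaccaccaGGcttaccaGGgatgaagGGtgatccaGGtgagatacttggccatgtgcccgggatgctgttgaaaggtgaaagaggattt
The stretch of COL1A1 opens a run of 338 such triplets, and that of COL1A2 a run of 339. COL8A1 opens a run of 61. In COL4A1 the capitals stop partway, where its longest run of 40 triplets ends, and the glycine codons further on belong to other runs or to none. Over the whole family the longest run was 216 to 343 triplets in the fibrillar genes, 38 to 66 in the type IV genes and 23 to 113 in the others, so that type IV lies within the range of the others. Collagen transcripts are long, with a median of 6446 bases over the 32 tested genes against 3487 bases over tested genes with a coding length.

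Levels are compared between genes per length, as RPKM, which are reads scaled to library depth and to transcript length in kilobases (mean over the groups). COL1A1, the major chain of type I collagen, was highest at 76.4 RPKM. It was followed by COL6A2, a chain of the beaded filaments of type VI, at 45.2 RPKM, and COL8A1, a short-chain network collagen of vessel walls, at 22.8 RPKM. COL1A2, the partner chain of COL1A1, stood at 20.2 RPKM and COL13A1, a transmembrane collagen, at 19.8 RPKM. The type IV chains COL4A2 and COL4A1 reached 8.61 and 6.81 RPKM, while the fibrillar COL3A1 reached 1.13 RPKM. COL2A1, the cartilage fibril chain, had at most 1 count in any library. The collagens of this carcinoma line were thus led by types I, VI, VIII and XIII.

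Levels below are CPM, the count of a gene scaled to a common library size, computed from the deposited counts and TMM-scaled library totals. The libraries held 38219702 to 48997555 counts in genes, so that 3 counts corresponded to 0.0624 to 0.0805 CPM. GJA1 itself was at 51.1 and 46.3 CPM alone, 65.9 and 64.7 CPM in the control coculture, and 27.8 to 33.8 CPM in the 4 hairpin libraries (log2 change -1.11, SE 0.061, edgeR adjusted p = 7.89e-06). In bulk libraries such as these, fewer cells and less RNA per cell cannot be told apart.

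Before any comparison, replicate 1 of the control cells alone stood apart from its partner in collagen genes. Summed over all 44 genes, collagens made up 2081 CPM in that library and 1367 CPM in replicate 2, against 1519 to 1630 CPM in the control cocultures and 1097 to 1243 CPM in the hairpin cocultures. Of the 32 tested genes, 17 had their highest level of all 8 libraries there, where 12.7% of all tested genes did, and 0 had it in replicate 2, where 17.6% did. COL1A1 was at 833 CPM in replicate 1 and 518 CPM in replicate 2. COL3A1, which forms fibrils with type I in soft tissue, was at 10.8 and 3.72 CPM. COL12A1, which coats fibrils, was at 33.1 and 16.2 CPM. These gaps are wide beside those of the cocultures, in which COL3A1 lay between 5.12 and 7.02 CPM and COL12A1 between 13.0 and 15.1 CPM.

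**Figure D1:**
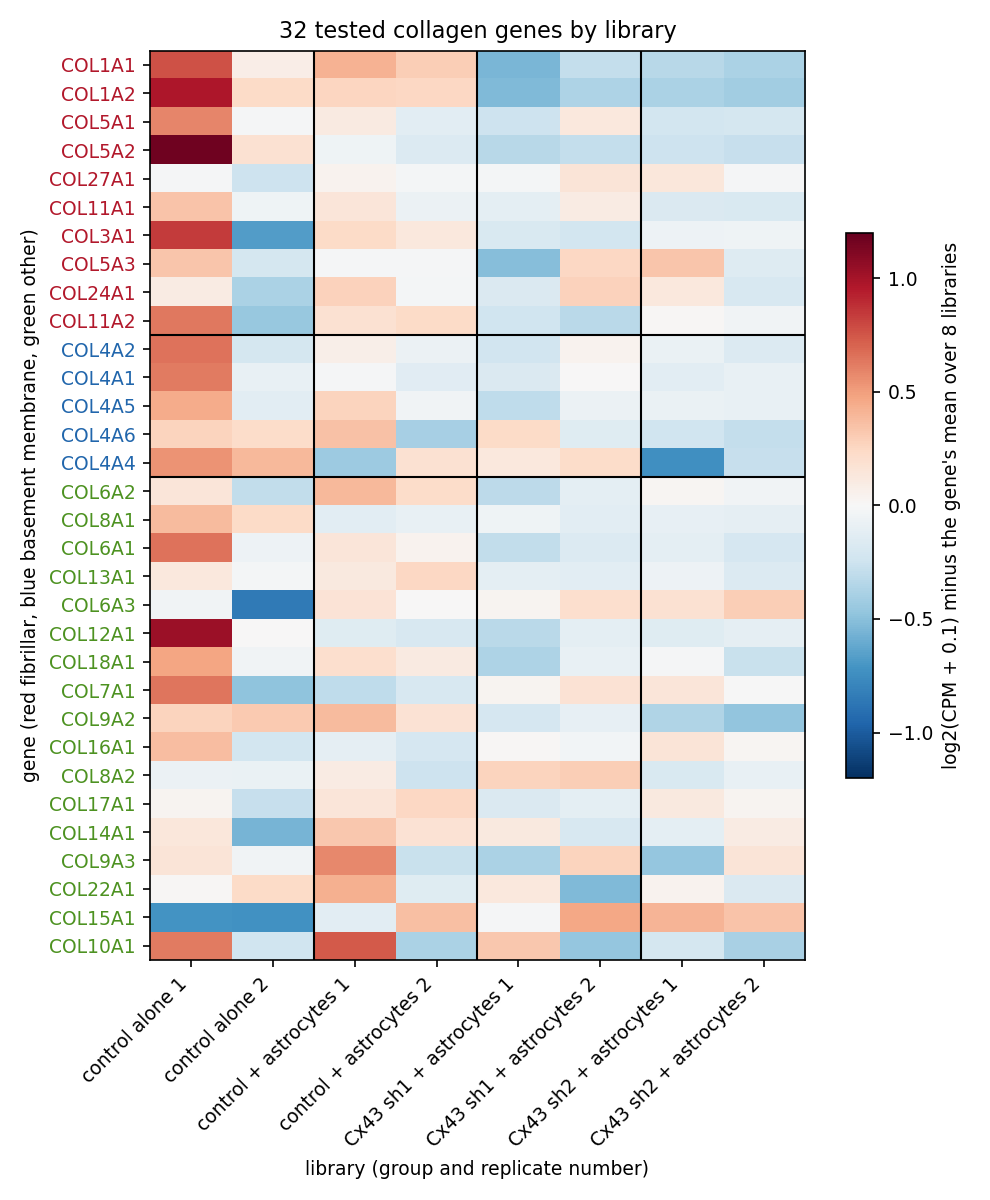
Each row is 1 of the 32 tested collagen genes and each column a library; colour gives log2(CPM + 0.1) minus the mean of the gene over the 8 libraries. Replicate 1 of the control cells alone is the reddest column, holding the highest value of 17 genes, and COL1A1 and COL1A2 are blue in all 4 hairpin libraries.

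The log2 ratio of replicate 1 to replicate 2 in control cells alone had a median of 0.55 over the 32 collagens, and 30 of them were above 0. It was at least 0.5 in 18 collagens, against 3.83% of all tested genes. By class the median was 0.64 in fibrillar, 0.57 in type IV and 0.44 in other collagens. The same ratio in the other groups had collagen medians of 0.12 in the control coculture, -0.15 with hairpin 1 and 0.05 with hairpin 2. Over all tested genes the median in control cells alone was -0.00. The genes furthest apart were COL3A1 (1.51), COL7A1 (1.13), COL12A1 (1.02), COL5A2 (0.99) and COL4A2 (0.87), all averaging 50 counts or more. COL7A1 forms the anchoring fibrils of skin, COL5A2 is a type V chain that sets fibril width, and COL4A2 is a basement membrane chain. Not all collagens took part: COL8A1 (0.15), COL13A1 (0.15), COL4A6 (0.05), COL8A2 (0.01), COL15A1 (0.00) and COL9A2 (-0.04) were close between the replicates. COL22A1 (-0.22), which averaged 26 counts, was lower in replicate 1.

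Coding length moved with this ratio across all tested genes. The median log2 ratio in control cells alone was -0.09 over 2719 genes with up to 250 codons, 0.09 over 1142 genes with 1001 to 1500 codons, 0.20 over 247 genes with 2001 to 3000 codons and 0.31 over 121 genes with more. Between 1001 and 2000 codons the collagen medians lay above those of all genes of like coding length. Between 1501 and 2000 codons the median was 0.54 over 15 collagens and 0.13 over all 384 genes. Between 1001 and 1500 codons it was 0.70 over 8 collagens. Single collagens in these bins lay below the median of all genes: COL22A1 (-0.22), COL4A6 (0.05) and COL15A1 (0.00). Other long genes were shifted too: 29 of 29 tested members of a list of long transcripts that encode no matrix protein were above 0, with a median of 0.47. All 24 members of a list of short transcripts were below 0, with a median of -0.18. Laminins and other basement membrane partners had a median of 0.47 over 14 genes and partners of fibrils 0.52 over 12, while enzymes that modify and fold collagen had 0.09 over 17. Trends with coding length of the same or the opposite sign were present in the other groups, where the 1501 to 2000 codon bin had medians of 0.15 in the control coculture, -0.19 with hairpin 1 and -0.07 with hairpin 2. Across 11902 genes averaging 50 counts or more, Spearman's rho between this ratio and coding length was 0.50 in control cells alone, 0.52 in the control coculture, -0.55 with hairpin 1 and -0.37 with hairpin 2. These are descriptions over genes that share libraries and carry no test. What part coding length has in the collagen difference was not tested, and the bins by coding length were chosen after the values were seen.

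**Figure D2:**
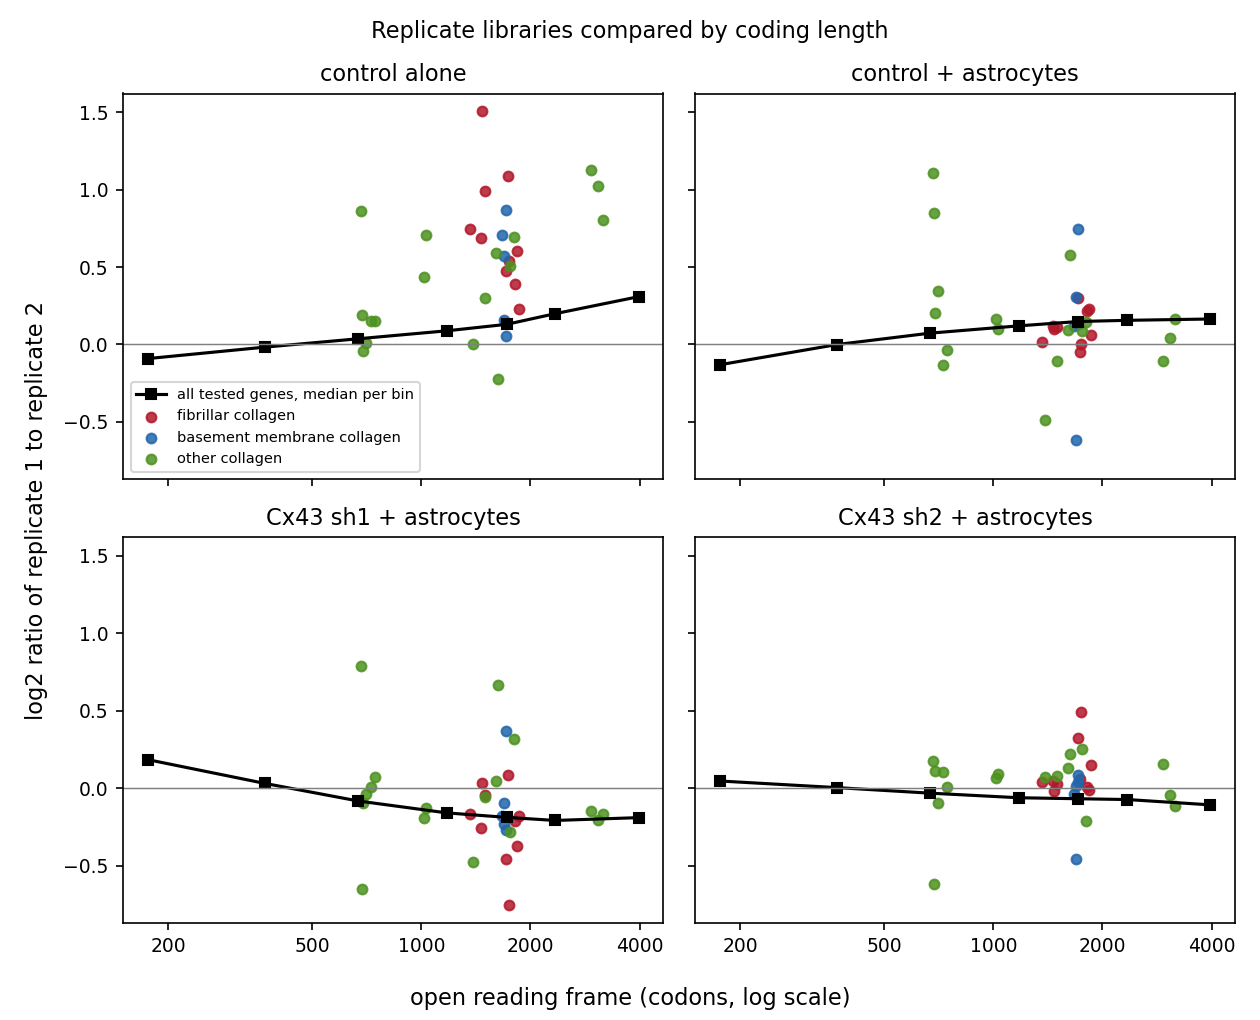
Each panel is a group; the y axis is the log2 ratio of replicate 1 to replicate 2 and the x axis the coding length in codons on a log scale. Squares are medians of all tested genes per bin and coloured points are single collagens; in control cells alone most collagens lie above the line, with a median of 0.55.

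Control cells with astrocytes were compared with control cells alone to see which collagens differed in the presence of astrocytes. By edgeR's quasi-likelihood test with Benjamini-Hochberg adjustment over all 15806 tested genes, 0 of 32 collagens were higher and 1 was lower, where 8.74% of all tested genes were called higher and 2.93% lower. At an unadjusted p under 0.05, 3 were higher and 4 lower, against 16.4% and 10.7% of all tested genes. The called gene was COL8A1 (ENSG00000144810.11, chromosome 3). It was at 168 and 151 CPM in cells alone and at 118 and 121 CPM in cocultures, so the groups did not overlap. The log2 change was -0.42 (SE 0.070, adjusted p = 0.00652). All 6 coculture libraries, with or without Cx43 hairpins, lay between 118 and 124 CPM. Leaving out replicate 1 of cells alone ended the call (-0.35, adjusted p = 0.0578), and so did leaving out replicate 1 of the control coculture (-0.40, adjusted p = 0.0539).

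The remaining 31 tested collagens did not pass the test. Type I was the most abundant of them: COL1A1 was at 655 and 602 CPM in cocultures, between the 2 libraries of cells alone, with a log2 difference of -0.10 (SE 0.19, adjusted p = 0.761). COL1A2 was at 202 and 121 CPM alone and at 124 and 122 CPM in coculture. COL5A2 was at 38.9 and 19.5 CPM alone and at 16.6 and 15.4 CPM in coculture, a difference of -0.86 (SE 0.26, adjusted p = 0.0627) with no overlap. In type IV collagen all 5 tested genes were below 0, with a median of -0.28, and 0 were called. COL4A1 was at 68.4 and 41.8 CPM alone and at 43.9 and 40.4 CPM in coculture. COL4A2 was at 86.4 and 47.3 CPM alone and at 57.4 and 52.3 CPM in coculture. In both chains replicate 1 of the cells alone was the highest of all 8 libraries, and replicate 2 lay within the range of the 6 cocultures.

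The collagen differences in this comparison depended on which library of control cells alone was kept. Without replicate 1, 3 collagens were called higher, where 4.40% of all tested genes were, and 0 lower, where 0.740% were. These were COL3A1 (0.85, adjusted p = 0.00884), COL6A2 (0.59, adjusted p = 0.0252) and COL6A3 (0.92, adjusted p = 0.00398), and 24 of 32 collagens were above 0. COL6A3 is the large chain of type VI and was named after its values were seen. It was at 52.9 and 30.3 CPM alone and at 61.3 and 54.7 CPM in coculture. COL6A2 was at 171 and 126 CPM alone and at 202 and 180 CPM in coculture. Without replicate 2, 20 of 32 collagens were below 0, with a median of -0.35 against -0.01 over all tested genes. Among those below 0 were COL5A2 (-1.29), COL12A1 (-1.21), COL7A1 (-0.90) and COL3A1 (-0.67). COL3A1 thus changed sign between the 2 fits, while COL8A1 was below 0 in both.

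Cocultures of Cx43-depleted cells were set against the control coculture, which asks which collagens differed with connexin 43. Type I collagen was lower, with both of its chains changed alike. Over both hairpins, 4 of 32 collagens were called lower and 0 higher, where 5.85% of all tested genes were lower and 3.37% higher. In all, 24 of 32 were below 0, and the median log2 change was -0.17 against -0.01 over all tested genes. In 13 collagens the 4 hairpin libraries were all below both control cocultures, which held for 18.1% of all tested genes. By class, 2 of 10 fibrillar, 0 of 5 type IV and 2 of 17 other collagens were called.

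COL1A1 (ENSG00000108821.9, chromosome 17) was at 655 and 602 CPM in the control coculture. It was at 336 and 402 CPM with hairpin 1 and at 390 and 378 CPM with hairpin 2. Every hairpin library lay below every library of control hairpin cells, the 518 CPM of replicate 2 alone included. The log2 change was -0.74 (SE 0.16, edgeR adjusted p = 0.0241), which left 0.599 of the control level. COL1A2 (ENSG00000164692.13, chromosome 7) was at 124 and 122 CPM in the control coculture. It was at 71.1 and 79.8 CPM with hairpin 1 and at 78.9 and 76.9 CPM with hairpin 2, again below all 4 libraries of control hairpin cells. Its log2 change was -0.68 (SE 0.16, edgeR adjusted p = 0.0367). With only the groups of the contrast fitted, both calls held. COL1A1 was at -0.74 (SE 0.080, edgeR adjusted p = 0.00244) and COL1A2 at -0.68 (SE 0.063, edgeR adjusted p = 0.000972). In the fit over all groups the call of both chains ended without either control coculture library and without either hairpin 2 library. COL1A1 was then at -0.79 to -0.68 with adjusted p-values up to 0.117, and COL1A2 at -0.69 to -0.67 with values up to 0.163.

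COL9A2 and COL13A1 were the other called members. COL9A2 (ENSG00000049089.9, chromosome 1), a chain of the fibril-associated type IX of cartilage, was at 6.35 and 5.50 CPM in the control coculture. It was at 4.23 and 4.54 CPM with hairpin 1 and at 3.76 and 3.48 CPM with hairpin 2. The log2 change was -0.57 (SE 0.098, edgeR adjusted p = 0.00963). COL13A1 (ENSG00000197467.9, chromosome 10), which spans the plasma membrane at cell adhesions, was at 68.2 and 74.7 CPM in the control coculture. It was at 58.0 and 57.6 CPM with hairpin 1 and at 60.4 and 56.2 CPM with hairpin 2, a log2 change of -0.30 (SE 0.068, edgeR adjusted p = 0.0306). In neither gene did the hairpin libraries overlap any library of control hairpin cells. The COL9A2 call ended without replicate 1 of the control coculture (-0.47, adjusted p = 0.0938) and without replicate 2 of hairpin 2 (-0.55, adjusted p = 0.0544). The COL13A1 call ended without either control coculture library and without either hairpin 2 library, at -0.36 to -0.22 with adjusted p-values up to 0.249.

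**Figure D3:**
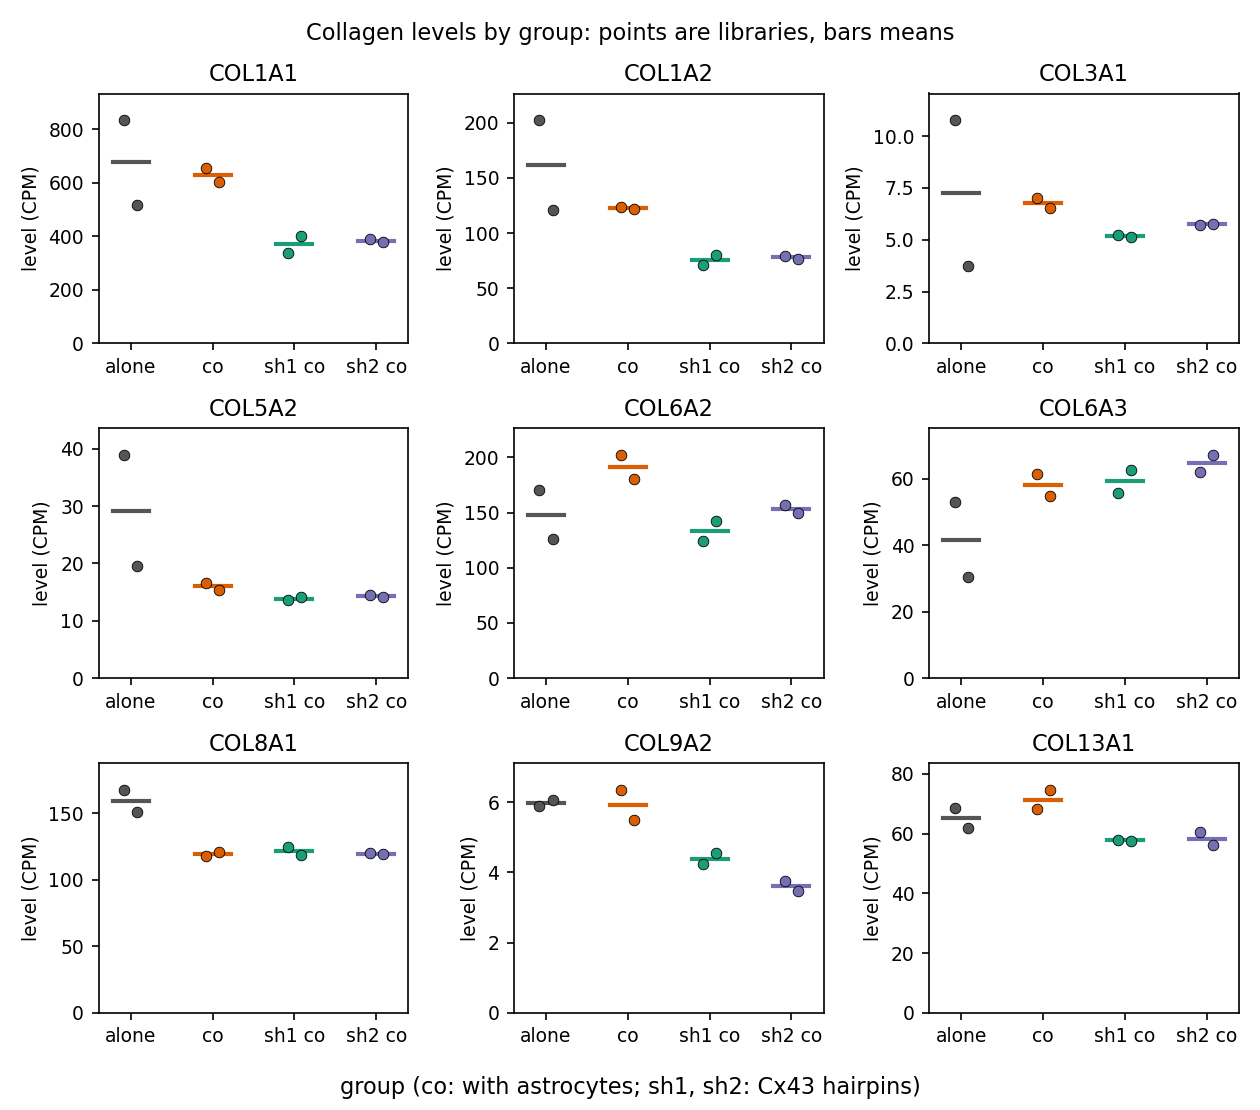
Points are CPM of single libraries and bars are group means, with the axis starting at 0, for control cells alone, the control coculture and the 2 Cx43 hairpin cocultures. COL1A1, COL1A2, COL9A2 and COL13A1 are lower in all 4 hairpin libraries than in the 4 control hairpin libraries, while COL8A1 is lower in all 6 cocultures than in cells alone.

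In the fit over all 4 groups, 0 of the 8 other fibrillar chains and 0 of the 5 type IV chains were called. None of them had an unadjusted p under 0.05 in that fit. Whether their change differed from that of type I was not tested. COL3A1 was at 7.02 and 6.55 CPM in the control coculture and between 5.12 and 5.78 CPM in the hairpin libraries, without overlap, but the difference did not pass the test (-0.31, SE 0.33, adjusted p = 0.603). COL5A2 was at 16.6 and 15.4 CPM in the control coculture and between 13.6 and 14.5 CPM with the hairpins (-0.18, adjusted p = 0.668). COL4A1 differed by -0.02 (SE 0.16) and COL4A2 by -0.11 (SE 0.20). COL6A2 was at 202 and 180 CPM in the control coculture, at 125 and 142 CPM with hairpin 1 and at 157 and 150 CPM with hairpin 2, and just missed the threshold (-0.42, SE 0.12, adjusted p = 0.0557). With only the groups of the contrast fitted, COL6A2 (-0.42, edgeR adjusted p = 0.0214) and COL6A1 (-0.29, edgeR adjusted p = 0.0445) were called lower. In that fit COL3A1 (-0.31, SE 0.083, edgeR adjusted p = 0.0682) and COL7A1 (0.34, SE 0.089, edgeR adjusted p = 0.0672) were not called. In the fit over all groups COL8A1 differed by 0.01 (SE 0.061). COL7A1 was among the 8 collagens above 0 (0.34, edgeR adjusted p = 0.465). It was at no more than 8.61 CPM in the control coculture and 9.83 to 11.2 CPM with the hairpins. In cells alone COL7A1 was at 15.5 and 7.03 CPM.

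**Figure D4:**
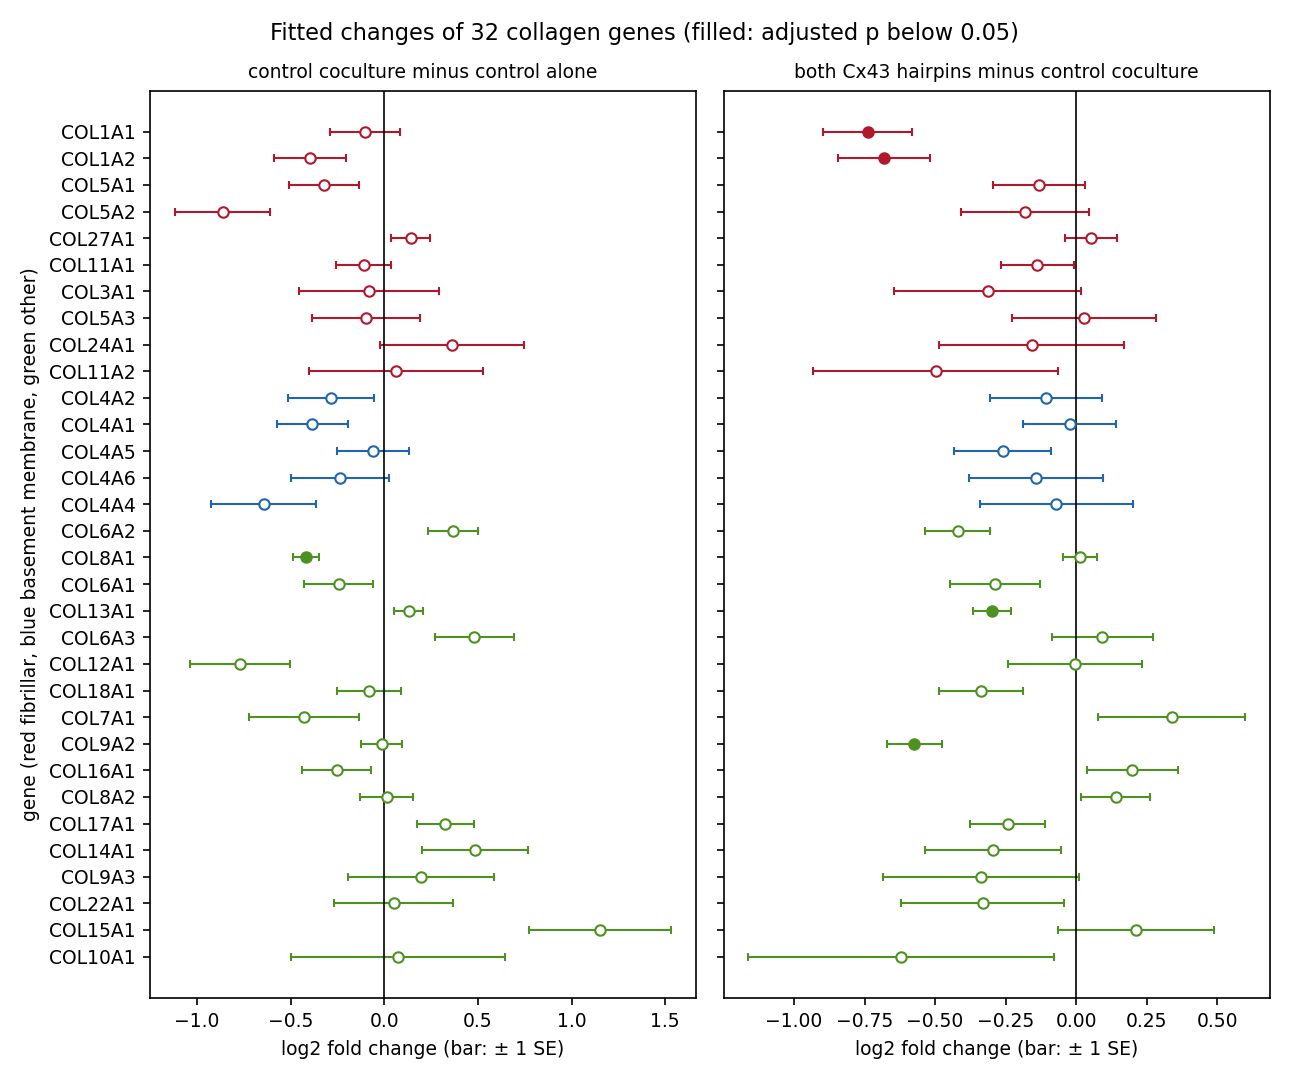
Log2 fold changes with 1 standard error for the 32 tested collagens, ordered by class and level, on a linear axis; filled points passed the test at an adjusted p of 0.05. On the left only COL8A1 is filled, and on the right COL1A1, COL1A2, COL13A1 and COL9A2 are, all below 0.

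Fibroblast and meningeal markers were tabulated beside this result, since such cells are a main source of type I collagen. Their summed level over 13 genes was 77.3 to 82.0 CPM in the control coculture, 59.0 to 65.7 CPM in the hairpin libraries and 72.0 to 79.5 CPM in cells alone. Of these 13 markers 1, ASPN, had at most 3 counts in every library, and THY1 made up 28.7% of the sum. Of 10 tested, 3 were lower in the hairpin cocultures and 0 higher, against 5.85% and 3.37% of all tested genes. The astrocyte marker sum was 266 to 271 CPM in the control coculture, 223 to 236 CPM with the hairpins and 225 to 229 CPM in cells alone. The sum was thus alike in the hairpin cocultures and in cells without astrocytes, and GLUL made up 73.6% of it. GFAP, the classical astrocyte filament gene, was at 13.8 and 12.8 CPM in the control coculture, higher at 16.5 and 16.9 CPM with hairpin 1, and lower at 11.7 and 12.2 CPM with hairpin 2. In cells alone GFAP was at 8.80 and 8.53 CPM. S100B and GJB6 had at most 3 counts in any library. The sum of 9 markers of the carcinoma line was 3284 to 3427 CPM in the control coculture and 2406 to 2664 CPM with the hairpins. In cells alone it was 2650 and 2407 CPM, and VIM made up 58.7% of the sum. VIM was at 2175 and 2095 CPM in the control coculture, at 1356 to 1548 CPM with the hairpins and at 1505 and 1318 CPM in cells alone. KRT7, in the same order, was at 15.1 and 15.5 CPM, at 15.7 to 17.8 CPM and at 9.52 and 10.1 CPM. The pericyte and smooth muscle sum was 29.5 to 31.3 CPM in the control coculture and 24.7 to 28.7 CPM with the hairpins. The part of these marker levels in the collagen result was not tested. Library 1 of cells alone, where collagens were highest, had a fibroblast marker sum of 79.5 CPM against 72.0 CPM in library 2. POSTN, which also partners fibrils, was at 14.5 and 9.38 CPM. THY1 (24.7 and 25.0 CPM) and DCN (0.891 and 1.25 CPM) were lower in library 1. ASPN had no count in either library, and the other fibroblast markers were higher in library 1. The pericyte and smooth muscle sum in library 1 was 40.0 CPM against 31.5 CPM, and that list was not raised as a whole. CSPG4 (17.8 and 10.8 CPM), NOTCH3 (5.30 and 3.10 CPM), DES and ABCC9 were higher in library 1. ACTA2 (6.08 and 6.43 CPM), CNN1 (6.43 and 6.51 CPM), RGS5 (1.95 and 2.16 CPM), KCNJ8 and MYH11 were lower there.

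Each hairpin was also compared with the control coculture on its own. With hairpin 1, 1 collagen was called, COL1A1 (-0.77, SE 0.19, adjusted p = 0.0438), where 7.82% of all tested genes were called. With hairpin 2, 1 was called, COL9A2 (-0.71, SE 0.12, adjusted p = 0.0117), where 4.16% were. The values of the other hairpin were close to the threshold or alike in size. COL1A1 differed by -0.71 (SE 0.19, adjusted p = 0.0776) with hairpin 2, and COL9A2 by -0.44 (SE 0.11, adjusted p = 0.0521) with hairpin 1. COL1A2 differed by -0.70 and -0.66, and COL13A1 by -0.31 and -0.29, with hairpins 1 and 2. These comparisons share the 2 control coculture libraries. The COL1A1 call with hairpin 1 ended without any of the 6 coculture libraries, at -0.90 to -0.64. The COL9A2 call with hairpin 2 ended without replicate 1 of the control coculture (-0.60, adjusted p = 0.0954) and without either hairpin 2 library.

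Between the hairpins, 0 of 32 collagens were called by edgeR, where 0.0316% of all tested genes were, and DESeq2 called 0 as well. At an unadjusted p under 0.05, 0 were higher and 3 lower with hairpin 2, against 3.61% and 3.25% of all tested genes. COL1A1 differed by 0.06 (SE 0.19) and COL9A2 by -0.28 (SE 0.12, adjusted p = 0.705).

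Against control cells alone, the depleted cocultures had 7 collagens lower and 1 higher, where 6.34% of all tested genes were lower and 10.8% higher. COL1A2 (-1.07, adjusted p = 0.0041), COL9A2 (-0.59, adjusted p = 0.00619) and COL1A1 (-0.84, adjusted p = 0.0103) were lower here too, but this comparison shares its hairpin libraries with those above. COL8A1 (-0.40), COL5A2 (-1.04), COL12A1 (-0.77) and COL6A1 (-0.53), a type VI chain, were the other lower genes. COL6A1 was at 121 and 74.2 CPM alone and at 63.0 to 71.5 CPM in the hairpin libraries. COL15A1, a basement membrane zone collagen that carries an endostatin-like fragment, was the gene called higher. It was scarce, at 0.188 and 0.187 CPM alone, 0.334 and 0.510 CPM in the control coculture and 0.370 to 0.555 CPM in the hairpin libraries (1.36, SE 0.32, adjusted p = 0.0226). Its call ended without either library of cells alone and without either hairpin 2 library (adjusted p up to 0.128).

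Replicate 1 of the cells alone weighed on this comparison as well. Without it 3 collagens were lower and 2 higher, where 0.981% and 2.64% of all tested genes were. COL1A2 (-0.67, adjusted p = 0.00729), COL9A2 (-0.62, adjusted p = 0.0417) and COL5A2 (-0.48, adjusted p = 0.0273) kept their calls. COL1A1 (-0.47, adjusted p = 0.053), COL8A1 (-0.34, adjusted p = 0.0558), COL12A1 (-0.18, adjusted p = 0.267) and COL6A1 (-0.14, adjusted p = 0.314) did not. COL7A1 was called higher in that fit (0.57, adjusted p = 0.0457), although with both libraries it stood at -0.09, and COL6A3 was the other (1.02, adjusted p = 0.00441). COL5A2 lost its call without replicate 2 of hairpin 2 (-1.04, adjusted p = 0.0614), as did COL1A1 (-0.83, adjusted p = 0.0513). COL12A1 and COL6A1 also lost theirs without either control coculture library or either hairpin 2 library, with COL12A1 at -0.78 to -0.76 and COL6A1 at -0.55 to -0.51.

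Chains that assemble together were compared within each library, as ratios of CPM per kilobase of transcript. The ratio of COL1A1 to COL1A2 was 3.31 and 3.45 in cells alone, 4.26 and 3.97 in the control coculture and 3.81 to 4.06 with the hairpins. The chains of type I thus fell together with the hairpins. COL1A1 and COL1A2 made up 46.7% to 49.7% of all collagen CPM in the 4 control hairpin libraries and 37.1% to 38.8% in the 4 hairpin libraries against Cx43. Of the type VI chains, COL6A3 relative to COL6A1 was 0.172 and 0.161 in cells alone, 0.283 and 0.271 in the control coculture and 0.343 to 0.394 with the hairpins. Cells alone, control cocultures and hairpin cocultures did not overlap in this ratio. COL6A1 to COL6A2 was 0.581 and 0.481 in cells alone and 0.345 to 0.413 in all cocultures. These ratios are descriptions without a test.

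The ratio of COL4A1 to COL4A2, also per kilobase of transcript, was nearly constant at 0.750 to 0.866 over the 8 libraries. Each gene was nonetheless highest in replicate 1 of the cells alone. The 2 genes lie head to head on chromosome 13 and are transcribed in opposite directions from a shared promoter. The 126 bases between their start sites, at chr13:110307158-110307283 of GRCh38.p14 (plus strand, RefSeq), are shown because both chains are read from them.
COL4A1 to COL4A2: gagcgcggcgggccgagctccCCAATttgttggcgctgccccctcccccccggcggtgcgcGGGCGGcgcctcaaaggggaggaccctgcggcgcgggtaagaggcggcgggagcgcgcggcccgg
Capitals mark 1 match to CCAAT and 1 to GGGCGG, both on the plus strand, with 0 on the minus strand. On either strand CCAAT was present in 21.9% and GGGCGG in 34.6% of 27305 RefSeq promoter windows of the same length. TATAAA had 0 matches, and 6.23% of windows held it. A match of letters is not evidence of a bound factor.

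Genes of the wider collagen pathway were read from the same fit. Among enzymes and chaperones that modify and fold chains, 6 of 17 were lower in the Cx43-depleted cocultures and 0 higher, where 5.85% of all tested genes were lower and 3.37% higher. The counts of the next lists are to be read against the same shares. They included SERPINH1 (-0.33), the collagen chaperone HSP47, the lysyl hydroxylases PLOD3 (-0.36) and PLOD1 (-0.29), and P4HA2 (-0.36), a prolyl hydroxylase subunit. SERPINH1 was at 185 and 190 CPM in the control coculture and at 143 to 154 CPM with the hairpins. Of the export and trimming genes 1 of 12 was lower, SEC24D (-0.28), a coat protein of the carriers that export procollagen. Of 5 crosslinking enzymes 1 was lower, LOXL4 (-0.42). Of 12 partners of fibrils 3 were lower: the collagen-binding SPARC (-0.51, adjusted p = 0.00109), periostin POSTN (-0.64) and matrilin MATN2 (-0.32). SPARC was at 206 and 199 CPM in the control coculture and at 140 to 144 CPM with the hairpins. Of 9 collagen receptors and 14 basement membrane partners 0 were called in either direction. POSTN is also on the list of fibroblast and meningeal markers.

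In the control coculture against control cells alone, 4 of 9 tested receptors were higher and 0 lower, where 8.74% of all tested genes were higher and 2.93% lower. They were the discoidin domain receptor DDR1 (0.85, adjusted p = 0.000289) and the integrin subunits ITGA2 (0.79), ITGA11 (0.80) and ITGA1 (0.54). DDR1 was at 32.4 and 29.5 CPM alone and at 56.5 and 54.9 CPM in coculture. All 4 calls remained without replicate 1 of the cells alone. Of the modifying enzymes 2 of 17 were higher, a share close to that of all tested genes: P4HA2 (0.42) and SERPINH1 (0.26), and of the export and trimming genes 3 of 12 were: ADAMTS3 (1.01), an aminoprocollagen peptidase, BMP1 (0.43), the carboxyprocollagen peptidase, and SEC24D (0.35). LOXL4 was also higher (0.42). Without replicate 1 of the cells alone SERPINH1 (adjusted p = 0.118), ADAMTS3 (adjusted p = 0.0559) and LOXL4 (adjusted p = 0.0525) lost their calls. Of the partners of fibrils and of basement membranes 0 were called.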

How the data were processed

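TRAP RNA of 4 groups of 2 libraries was sequenced, per the labels' protocols, from TruSeq v2 libraries. Per the submitters' processing notes, which give no versions, TopHat2, HTSeq, DESeq2 and the build hg19 were used. Annotation and strand setting are not given in the sources used here. The deposited values are whole counts of reads per gene and differ in their totals, so they were taken as unscaled, although the table's name calls them normalized. Antisense collagen rows had at most 2 counts in any library.

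Counts were tested with edgeR 4.0.16 in R 4.3.3 (quasi-likelihood, TMM, groups only, mean count of at least 10, 15806 genes, adjusted p threshold 0.05). The common coefficient of variation was 7.66%. Fold changes are log2. Replicate ratios used CPM plus 0.1. CPM were scaled by TMM, and RPKM, transcript and coding lengths used the longest protein-coding GENCODE v29 transcript on GRCh38. Promoter windows came from RefSeq, where 32 of 44 members had an entry. Coordinates on hg19 were not used here. The tests were tried on simulated data.

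Members chosen to be given with their levels were those called in any contrast and COL1A1, COL1A2, COL3A1, COL4A1, COL4A2 and COL7A1. So were the 5 highest per length and the 5 furthest apart between replicates at a mean count of at least 50. For some of them levels are given for part of the libraries only. From each other list, up to 4 genes with the smallest p were named. Members and lists were chosen with earlier results of these data known. Alternatives were scaling, DESeq2 1.42.0, count filters, fewer groups, a replicate block, length, coding-length and GC corrections, and leaving out each library. The coding-length and GC corrections were chosen after seeing the data.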

Additional observations from a re-analysis of the deposited data

How the results depend on the processing

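The number of collagens called depended on the setting. For the control coculture against cells alone (1 in the report) it was 3 with DESeq2, 3 with the length correction, 5 with the coding-length correction, and 0 to 9 when leaving out each library. For hairpin 1 (1) it was 2 with median-of-ratios scaling, 4 with DESeq2, 2 at a mean count of at least 1, 4 at a mean count of at least 50, 2 with only the groups compared, 5 with the length or coding-length correction, and 0 to 3 when leaving out each library. For hairpin 2 (1) it was 3 with DESeq2, 4 with only the groups compared, 4 with the length or coding-length correction, and 0 to 3 when leaving out each library. For both hairpins (4) it was 0 to 6 when leaving out each library, with 0 without replicate 1 of the control coculture or replicate 2 of hairpin 2. For the depleted cocultures against cells alone (8) it was 13 with the length correction, 17 with the coding-length correction, and 3 to 13 when leaving out each library. Also over both hairpins, 5 were called with the length or coding-length correction and 3 with the GC correction. COL6A2 was called lower there with DESeq2 (adjusted p = 0.00869) and with median-of-ratios scaling (edgeR adjusted p = 0.0497). With only the groups compared, COL6A2 and COL6A1 were called lower there. In the depleted cocultures against cells alone, the GC correction gave 1 higher and 5 lower. Calls over all tested genes moved with these settings too. In the depleted cocultures against cells alone, 1707 genes were higher and 1002 lower of 15806 in the report. With the length correction they were 1850 and 1493 of 15434, and with the coding-length correction 2183 and 1835 of 13233. For the control coculture against cells alone the report had 1381 higher and 463 lower. The length correction gave 1825 and 1096 there. The cause of these differences in number was not tested.

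Same-numbered libraries of different groups had correlations of their deviations from -0.42 to 0.22. With 2 libraries a group, these values cannot show whether libraries were prepared in pairs. With the replicate block, collagens called were 1 over both hairpins and 0 with hairpin 1. Over both hairpins COL9A2 was the call kept (adjusted p = 0.030), while COL1A1 (-0.73, adjusted p = 0.0512), COL1A2 (-0.68, adjusted p = 0.0676) and COL13A1 (-0.30, adjusted p = 0.0746) were not called. With the replicate block and the length correction they were 3, 4, 2 and 13 for coculture, hairpin 1, hairpin 2 and the depleted cocultures against cells alone.

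When leaving out each library, COL3A1 ran from -0.67 to 0.85 in the control coculture against cells alone, and COL7A1 from -0.57 to 0.57 in the depleted cocultures against cells alone. In both the positive end, which reversed the sign, came without replicate 1 of the cells alone (adjusted p = 0.00884 and 0.0457). The GC correction ended the call of COL13A1 over both hairpins (-0.24, adjusted p = 0.0531). The log2 change of GJA1 stayed between -1.16 and -1.09 and passed the test under every alternative run. The collagen median ratio of replicates in cells alone was 0.47 to 0.59 over scaling, pseudocount and filter. A group left with 1 library is assumed to vary like the others. At this depth the 12 untested collagens had too few counts to compare.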
